A study of Schizosaccharomyces pombe with 6 samples.

Results

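The region described here is the left end of chromosome III of fission yeast (Schizosaccharomyces pombe), which carries ribosomal DNA (rDNA), the tandem repeats that encode ribosomal RNA. Its members are the 298 array probes, of 43993 in all, that lie wholly within the first 15 kb of the chromosome. They were chosen by position, with a rule that uses no measured value, although earlier results of these data were known. The array tiles the sequence with 60-base probes whose starts lie 50 bases apart, and the last member ends at base 14970. With a repeat length of 10870 bases in the reference, the members span 1.38 repeat lengths.

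Each repeat unit encodes the 18S, 5.8S and 28S rRNAs, which RNA polymerase I transcribes as a single precursor. The internal transcribed spacers ITS1 and ITS2 lie between them and are cut out during rRNA maturation, and a longer spacer separates one unit from the next. The genes are among the most heavily transcribed of a growing cell, while the spacer holds the origin of replication, a fork barrier and the transcription terminators of the unit. In budding yeast some rDNA copies are transcribed and others are silent at any one time, and probes of a repeat read all copies together.

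The measurement is nucleosome turnover, read as the amount of newly made FLAG-tagged histone H3 that enters chromatin while replication is blocked. The mutants were amo1D, which lacks Amo1, a protein of the nuclear rim; rix1E414K, which carries a point mutation in Rix1, part of the rixosome, a complex needed to process ITS2; and pob3D, which lacks Pob3, part of the histone chaperone FACT. There was 1 array for each mutant and 3 for wild type (WT). All cells carried the plasmid pINV1-H3.2-FLAG, which makes the tagged H3 from the inv1 promoter when glucose is replaced by sucrose, beside their own untagged H3. All cultures grew in 8% glucose, were held in 15 mM hydroxyurea for 4 h and then stood in 4% sucrose with the drug for 2 h. Fixation was in 1% formaldehyde for 20 min, and chromatin was sheared to 400 to 600 bp. DNA pulled down through FLAG was labelled with Cy5 and input DNA, from whole-cell extract, with Cy3 throughout, and dyes were not swapped. Values are log2 of Cy5 over Cy3, with the median of all probes of an array set to 0. A level above 0 means more tagged H3 per input DNA than at the median probe, and total H3 was not measured.

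Median processed signals over all probes were 1018 to 1150 in Cy5 and 993.2 to 1145 in Cy3, and the SD of the log2 ratio was 0.37 to 0.49. No member probe was saturated, and 2 of 298 were not well above background on WT replicate 1. The deletion in amo1D was visible in the input DNA, where the 30 probes within amo1 averaged -9.61 in Cy3 on that array, against -0.68 to -0.87 on the other 5. That gene sits on the covered part of chromosome II. The slides paired amo1D and WT replicate 1, rix1E414K and WT replicate 2, and pob3D and WT replicate 3. Nothing in the labels tells whether WT replicates were grown as separate cultures. All p-values therefore rest on the spread among these arrays alone, part or all of which may be technical.

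In array coordinates, which matched the reference (ASM294v3) without an offset in the unique sequence adjoining the rDNA, the rRNA genes are on the minus strand. A truncated 18S gene, SPRRNA.42, opens the chromosome at chrIII:1-1390 and is followed by the long spacer. The complete unit then has the 28S gene SPRRNA.47 at chrIII:6057-9541, the 5.8S gene SPRRNA.50 at chrIII:9842-10006 and the 18S gene SPRRNA.43 at chrIII:10419-12260. Over the members, GC content and Cy3 had a correlation of 0.015 at offset 0 and of 0.18 at best, at -2790 bases. Over the rest of the rDNA it was 0.089 at 0 and 0.26 at best, at -2640 bases. In the unique sequence the best was 0.36 and 0.44, at 0 and 5 bases. These weak correlations did not settle an offset within the rDNA, so 0 was carried over along the unbroken tiling. All parts named below rest on that placement, and only shifts of 150 bases were tried.

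3 stretches of this reference are shown because the profile changes at or between them. They are from RefSeq (ASM294v3), minus strand, 5′ to 3′ and so in the direction of transcription. The first lies just past the 28S gene at chrIII:5546-5789. Capitals mark the letters AGGGTAATG, the core of the site bound by Reb1, the rDNA transcription terminator protein of fission yeast. The second, chrIII:2307-2447, holds the midpoints, at 2337 to 2417, of the drop from spacer level to gene level upstream of 18S. The drop itself was longer than this stretch, which has no letters in capitals. The third is ITS2, chrIII:9542-9841, in the low stretch between the genes, and also has none.
Downstream of 28S: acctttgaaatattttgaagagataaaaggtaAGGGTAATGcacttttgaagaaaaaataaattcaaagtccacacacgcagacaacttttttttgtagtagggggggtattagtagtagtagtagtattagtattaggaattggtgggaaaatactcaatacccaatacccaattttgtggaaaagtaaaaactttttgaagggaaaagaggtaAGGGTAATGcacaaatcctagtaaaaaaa
Upstream edge: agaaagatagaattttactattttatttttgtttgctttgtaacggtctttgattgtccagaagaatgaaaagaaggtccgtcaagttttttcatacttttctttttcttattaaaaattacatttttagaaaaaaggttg
ITS2: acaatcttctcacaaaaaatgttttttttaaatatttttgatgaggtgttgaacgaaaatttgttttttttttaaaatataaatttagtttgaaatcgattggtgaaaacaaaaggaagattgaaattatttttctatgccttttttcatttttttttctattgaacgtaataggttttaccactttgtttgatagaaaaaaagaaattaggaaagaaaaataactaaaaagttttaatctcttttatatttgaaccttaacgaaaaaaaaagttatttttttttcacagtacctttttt

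The motif AGGGTAATG, searched on both strands, lies 300 and 483 bases downstream of the 28S gene in this stretch. The same letters occur in 85 of 51601 windows of 244 bases of the genome, or 0.165%. GC content was 32.4% in the first stretch, 25.5% in the second and 21.0% in ITS2.

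On all 6 arrays tagged H3 was on average higher in the middle of the long spacer than from 18S to 28S or just upstream of 18S. The annotation used gives the rRNA genes and not the ends of the precursor, so part of the sequence called spacer may be transcribed. The long spacer, without the 1 kb next to 18S and the 500 bases next to 28S, is called the mid-spacer and has 98 probes. That division was chosen after the profile had been seen, so levels of its pieces are given as a description. The mid-spacer averaged 0.34 in amo1D, 0.78 in rix1E414K and 0.74 in pob3D, and 0.65, 0.40 and 0.85 in WT replicates 1 to 3. All 6 values lay above the array median. The mutant values of rix1E414K and pob3D fell within the WT range, and amo1D lay below it.

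**Figure D1:**
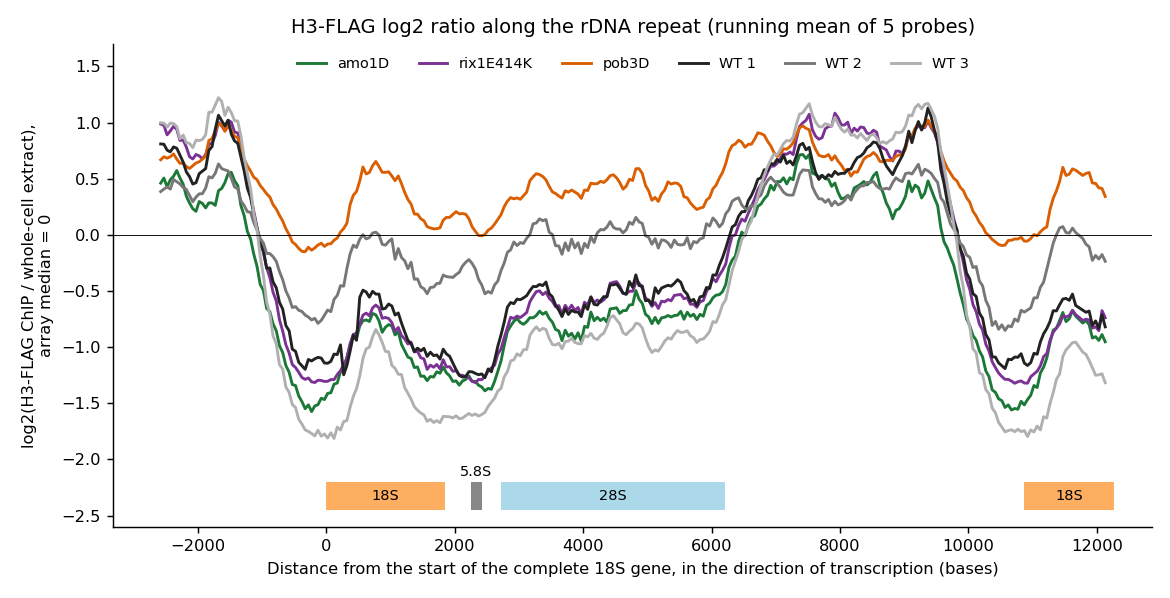
The log2 ratio of H3-FLAG ChIP over whole-cell extract (vertical axis, running mean of 5 probes) is plotted for each array against the distance in bases from the start of the complete 18S gene, in the direction of transcription, with boxes for the rRNA genes. The lines other than pob3D are higher in the middle of the spacer than over the genes and just upstream of 18S. The pob3D line is so only on average. It reaches 0.65 over 18S, while in the mid-spacer it falls to 0.52, and to 0.43 at the upstream edge. It is the uppermost line over the genes.

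The 28S gene, which encodes the RNA of the large ribosomal subunit, had 70 probes. It averaged -0.74 in amo1D, -0.58 in rix1E414K and 0.41 in pob3D, against -0.53, -0.02 and -0.92 in WT replicates 1 to 3. The pob3D array alone was above 0, and the other mutants lay inside the WT range. The 5′, middle and 3′ segments of the gene, of equal length, were much alike. They had 0.39, 0.47 and 0.35 in pob3D, against WT means of -0.55, -0.45 and -0.47.

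The 18S gene, which encodes the RNA of the small subunit, was lower still. Its 63 probes averaged -1.01 in amo1D, -0.93 in rix1E414K and 0.31 in pob3D, against -0.83, -0.24 and -1.37 in WT replicates 1 to 3. Only pob3D lay outside the WT range, above it. The complete 18S gene, cut into equal segments in the same way, was highest in the middle on every array. Its 5′, middle and 3′ segments had 0.16, 0.57 and 0.12 in pob3D, against WT means of -0.98, -0.57 and -1.02.

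The short 5.8S gene, whose RNA pairs with 28S, has 3 probes and lies between the transcribed spacers. It averaged -1.32 in amo1D, -1.31 in rix1E414K and 0.00 in pob3D, against -1.24, -0.31 and -1.61 in WT. ITS1, with 8 probes, averaged -1.29, -1.24 and 0.19 in amo1D, rix1E414K and pob3D, against -1.19, -0.32 and -1.62 in WT. ITS2, with 6 probes, averaged -1.37, -1.20 and 0.04 in these mutants, against -1.21, -0.51 and -1.50 in WT. Within an array these 3 stretches differed from each other by at most 0.20, and all lay below both large genes.

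The low stretch did not end at the 18S gene. The 1 kb upstream of its start, with 40 probes, averaged -1.24 in amo1D, -0.99 in rix1E414K and 0.04 in pob3D, against -0.86, -0.56 and -1.39 in WT. In that 1 kb the GC content of the probes was 31.2%, and in the mid-spacer it was 30.9%. The ratios of the 1 kb and the mid-spacer lay on opposite sides of 0 on all arrays but pob3D. The part of GC content in the ratio was not tested. The 18S and 28S probes had 44.6% and 47.2% GC, and ITS1 and ITS2 had 19.4% and 21.1%.

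**Figure D2:**
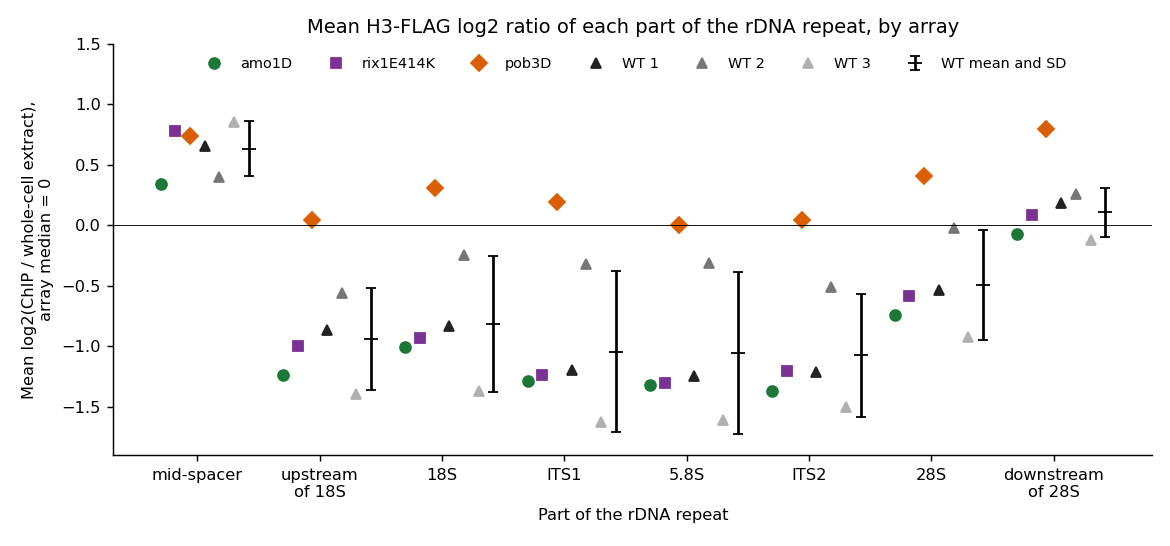
Each point is the mean log2 ratio of 1 array over the probes of 1 part of the repeat (horizontal axis), and the bar is the WT mean with its SD (n = 3). The pob3D points lie above all WT points in every part except the mid-spacer, and WT 3 is the lowest WT point wherever WT 2 is the highest.

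The 5 parts from 18S to 28S and all sequence outside them (148 probes) formed 15 pairs. These were compared within arrays by an exact two-sided sign-flip permutation test over the 6 arrays. In 12 of 15 pairs the difference had the same sign on 6 of 6 arrays, with an exact p of 0.03125, which is the smallest that 6 arrays allow, and an adjusted p of 0.039 over the 15 pairs (Benjamini-Hochberg). On this scale 28S minus the outside sequence averaged -0.60, and 18S minus the outside sequence averaged -0.88. The 3 pairs that did not pass were those among ITS1, 5.8S and ITS2. With normexp, and with no background subtraction, 10 of 15 passed, and 18S minus ITS1 and 18S minus 5.8S no longer did. With loess in place of median centring, 0 of 15 pairs passed and 6 of 15 kept one sign on all arrays.

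The steps into the spacer were located as the points where the smoothed ratio of an array crossed the level halfway between its mid-spacer and its low part. Upstream of 18S, the crossing lay 1027 bases from the gene start in amo1D, 1004 in rix1E414K and 947 in pob3D, and 1006, 987 and 1011 bases in WT replicates 1 to 3. These are from the copy next to the truncated gene. In the other copy the crossings were at 1025, 1007 and 962 bases in these mutants and at 1010, 976 and 1008 bases in WT. The edge therefore differed by less than 2 probe steps across all arrays and both copies, including pob3D, in which the drop itself was smaller. Chromatin fragments of 400 to 600 bp blur any such edge. On the other side, the ratio climbed past 28S, with the crossing 155 bases beyond the gene end in amo1D and 228 in rix1E414K. It lay 112, 19 and 274 bases beyond the end in WT, and in pob3D it lay 23 bases inside the gene. The crossings outside the gene were all short of the first AGGGTAATG at 300 bases.

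In windows of 500 bases, the 3 highest WT means were 0.84, 0.74 and 0.72, in the windows from 13501, 3001 and 4501, all in the mid-spacer. The 3 lowest were -1.18, -1.18 and -1.12, in the windows from 1501, 12001 and 1001, all at the start of an 18S gene or just upstream. The highest windows thus lay in the mid-spacer and the lowest around the start of 18S and upstream of it. Of 11 features annotated with SPNCRNA names, the 7 typed as long noncoding RNAs lie wholly or mostly in the mid-spacer and had WT means of 0.67 to 0.87. The other 4, typed only as sequence features, had -1.23 to -0.08. SPNCRNA.6665, at chrIII:2667-2886 in the high stretch, had 0.37, 0.91 and 0.94 in amo1D, rix1E414K and pob3D, against a WT mean of 0.87 ± 0.27 (SD, n = 3). SPNCRNA.6664, at chrIII:1351-1797 where 18S begins, had -1.54, -1.30 and -0.07 in these mutants, against a WT mean of -1.23 ± 0.48 (SD, n = 3).

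The repeat units could be compared because 81 probes of the truncated copy and its spacer have a counterpart a repeat length further on inside the same 15 kb. Probes designed for either copy hybridise to DNA from every copy in the cell, so this comparison shows how well the readout repeats and cannot tell copies apart. Probe starts fall at other points of the second copy, whose values were interpolated. The mean log2 ratio of the second copy minus that of the first was between -0.02 and 0.01 on the 6 arrays. The SD of the difference over probes was 0.17 in amo1D, 0.17 in rix1E414K and 0.11 in pob3D, and 0.25, 0.15 and 0.15 in WT replicates 1 to 3. Across these 81 probes the Pearson correlation was 0.95 to 0.99. Over 192 further probes set against the next copy beyond the 15 kb it was 0.85 to 0.99. Each channel alone repeated less closely, with an SD of the difference between 0.80 and 1.24 over both comparisons, so most of the scatter between probes was shared by Cy5 and Cy3.

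**Figure D3:**
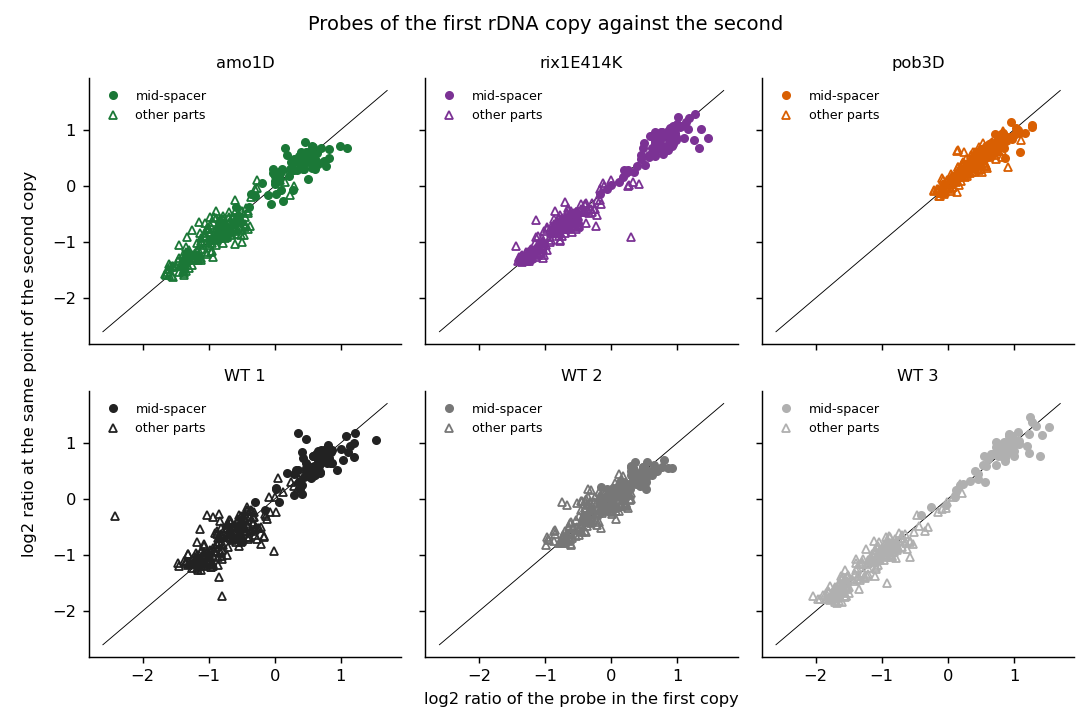
Each point is 1 probe, with its log2 ratio in one copy of the repeat on the horizontal axis and the interpolated ratio at the matching place one repeat further on the vertical axis, in 1 panel per array (mutants above, WT below). Points follow the diagonal, with correlations between 0.85 and 0.99, and pob3D spans the shortest range.

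Over all 298 probes the mean was -0.52 in amo1D, -0.28 in rix1E414K and 0.44 in pob3D. In WT it was -0.26, -0.01 and -0.51 for replicates 1 to 3, with a mean of -0.26 ± 0.25 (SD, n = 3). The pob3D value lay above all WT arrays and the amo1D value just below them. The covered genome was tested in 147 windows of 15 kb with limma, 1 coefficient per genotype over 6 arrays. The spread comes from the WT arrays, and limma moderates it over all windows, which raises the degrees of freedom from 2 to 6.36. The standard error of the rDNA difference was 0.17, below the WT SD of 0.25. Intervals and p-values are therefore tighter than the WT spread of the rDNA alone would give.

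In pob3D the window that holds the rDNA exceeded the WT mean by 0.70 (95% interval 0.29 to 1.11), 1.63-fold, with an unadjusted p of 0.005 in limma and an adjusted p of 0.113. It thus did not pass 0.05, as some windows with smaller differences did, although its difference was the largest in size of the 147 windows. The next largest was 0.696, in sequence outside chromosomes I to III. The difference from the WT array on the same slide was 0.95. Without WT replicate 3 the difference was 0.58 and the adjusted p in limma was 8.4e-06, past the threshold. The WT arrays left then had -0.26 and -0.01 in the rDNA. That p rests mainly on the spread of other windows and does not measure the WT spread in the rDNA. Without WT replicate 1 or 2 the adjusted p in limma stayed above 0.05, with a highest value of 0.120.

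In amo1D the difference was -0.26 (95% interval -0.67 to 0.15), with an adjusted p of 0.799 in limma. Without WT replicate 3 it was -0.38 with an adjusted p of 0.003 in limma, past the threshold. This p too rests mainly on the spread of other windows. In rix1E414K the difference was -0.02 (95% interval -0.43 to 0.39), with an adjusted p of 0.985 in limma. Its sign turned under 4 alternatives, so it has no settled direction. Differences of up to 0.43 in size lie within that interval.

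The mean over 15 kb hides where pob3D differed. Of its 298 probes, 216 (72.5%) were above all 3 WT arrays, where 27.6% of all probes on the array were. They included 70 of 70 probes in 28S, 63 of 63 in 18S, 3 of 3 in 5.8S, 8 of 8 in ITS1, 6 of 6 in ITS2, 40 of 40 upstream of 18S and 10 of 10 downstream of 28S. In the mid-spacer 16 of 98 were, or 16.3%. Below all WT arrays lay 1 of 298 probes, where 30.6% of all probes were. The difference from the WT mean was 1.12 for 18S, 0.90 for 28S, 0.98 upstream of 18S and 0.10 for the mid-spacer. For 18S and 28S pob3D stayed above all WT arrays under each of the 12 other ways of processing tried. The differences were 0.96 to 1.24 for 18S and 0.68 to 0.99 for 28S. Some of the 12 could hardly change these values: the deposited ratio is the same measure, and no member was saturated or outlier-marked.

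Much depends on which WT array is taken for comparison. Minus WT replicate 3, on the same slide, pob3D was higher by 1.68 in 18S and 1.33 in 28S, and the mid-spacer differed by -0.11. Minus WT replicate 1 these were 1.14, 0.94 and 0.08. Minus WT replicate 2 they were 0.55, 0.42 and 0.34, so that against this array the spacer was higher too. The mid-spacer minus 28S was 1.08 in amo1D, 1.36 in rix1E414K and 0.33 in pob3D, against 1.19, 0.41 and 1.77 in WT. The shallowest WT profile, that of replicate 2, was thus near the pob3D profile in its step, and lay below it in level throughout. This step was given no test, because the division it uses was made after the profile had been seen.

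In 1 kb bins, of which 2206 were tested with limma, 0 passed an adjusted p of 0.05 in any mutant. The spread was again moderated, here over all bins. At an unadjusted p below 0.05, 78 bins passed in amo1D, 118 in rix1E414K and 250 in pob3D. Of the 15 rDNA bins, 12 were higher in pob3D at that unadjusted level, where 6.94% of all bins were, and 12 were above all WT arrays, where 29.2% of all bins were. None of the 15 was lower at that level (4.4% of all bins) or below all WT arrays (32.6% of all bins). The number at the unadjusted level was 2 without WT replicate 1, 2 after scaling arrays to one spread and 0 with loess. The median difference over the 15 bins was 0.90 in pob3D, beside -0.01 over all bins. The bins that overlap the rRNA genes differed by 0.83 to 1.18. The 3 bins wholly in the mid-spacer differed by 0.02, 0.08 and 0.003.

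The largest of these differences was 1.18, in the bin from 10001, which holds ITS1 and the 3′ end of 18S. It had -1.24 in amo1D, -1.16 in rix1E414K and 0.15 in pob3D, and -1.10, -0.38 and -1.61 in WT, and the limma p for pob3D was 0.041 before and 0.427 after adjustment. The bin from 11001, inside 18S, had 0.47 in pob3D, against -0.72, -0.10 and -1.19 in WT, a difference of 1.15. The bin from 1001, which leads from 18S into the sequence upstream, had -0.03 in pob3D, against -1.07, -0.69 and -1.69 in WT, a difference of 1.12. In these 3 bins pob3D lay above every WT array, and the WT arrays were themselves far apart.

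**Figure D4:**
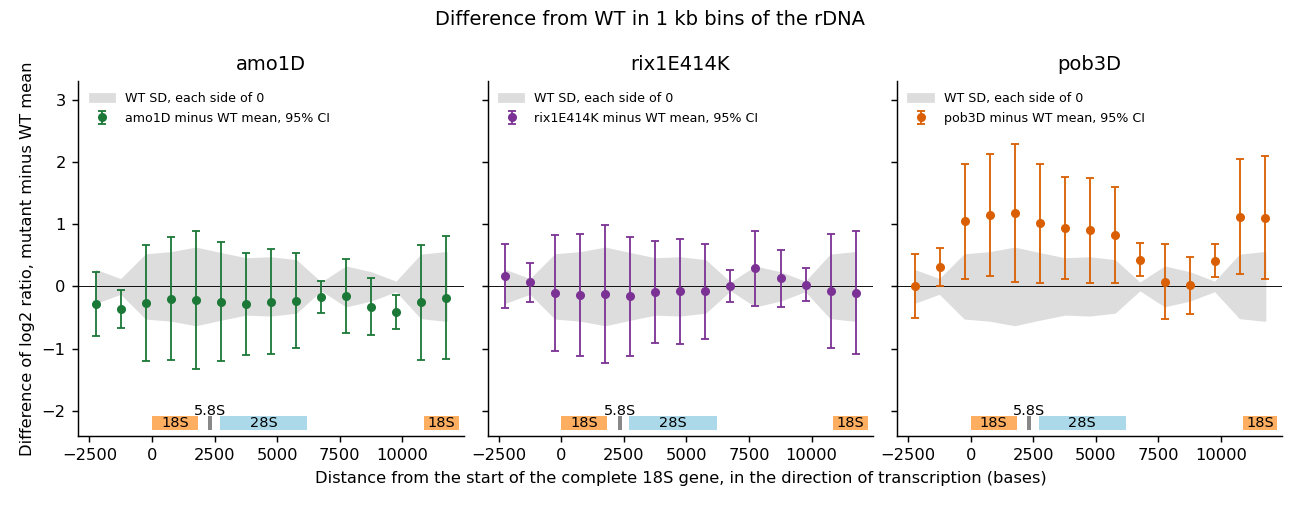
The difference in log2 ratio between each mutant and the WT mean is shown for the 15 bins of 1 kb (points, with the 95% interval from limma), against distance from the start of the complete 18S gene; the grey band is the WT SD on each side of 0. In pob3D the points over the genes lie between 0.83 and 1.18 and those within the mid-spacer near 0, while the intervals of rix1E414K all include 0.

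In amo1D the probes below WT were mostly in the spacer. Of 298 probes, 74 (24.8%) were below all WT arrays, close to the 23.4% of all probes on the array. Of the 98 mid-spacer probes, 56 were, or 57.1%, against 9 of 70 in 28S and 1 of 63 in 18S. The mid-spacer minus the WT mean was -0.29, and the other parts differed from that mean alike. They differed by -0.30 upstream of 18S and in ITS2, -0.25 in 28S, -0.19 in 18S and -0.18 downstream of 28S. Against single WT arrays the sign changed in the genes. Minus WT replicate 3, amo1D differed by 0.37 in 18S, 0.18 in 28S and -0.51 in the mid-spacer. Minus WT replicate 1 these were -0.17, -0.20 and -0.31, and minus WT replicate 2 they were -0.76, -0.72 and -0.06. Only the mid-spacer lay below all WT arrays. The WT SD was 0.23 in the mid-spacer, against 0.45 in 28S and 0.57 in 18S. The counts of probes below all WT arrays therefore do not show a larger shift in the spacer. The 1 kb bins from 2001 and from 13001, at overlapping but not identical places of the repeat, differed by -0.41 and -0.36, with unadjusted p of 0.011 and 0.030 in limma and adjusted p of 0.871 and 0.913. They were the 2 of 15 rDNA bins lower at the unadjusted level, where 0.771% of all bins were. The first had -0.26 in amo1D, against 0.23, 0.13 and 0.10 in WT, and the second had -0.001, against 0.43, 0.24 and 0.42. The bin with the next largest difference, from 3001, had 0.38 in amo1D, against 0.73, 0.48 and 0.91 in WT. Of the 15 bins, 5 lay below all WT arrays, where 24.9% of all bins did. None was higher at the unadjusted level (2.77% of all bins) or above all WT arrays (27% of all bins), and 0 of 298 probes were above them (25% of all probes). Both named bins straddle the upstream edge, where high and low probes average out, and the WT SD there was 0.07 and 0.11, against 0.22 and 0.31 in the bins from 3001 and 4001.

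In rix1E414K 0 of the 15 rDNA bins were higher and 0 lower at the unadjusted level, where 1.31% and 4.03% of all bins were. None lay above all WT arrays (26.2% of all bins) or below them (25.4% of all bins). The median difference over the 15 bins was -0.08, beside -0.01 over all bins. The largest differences were 0.29, 0.17 and 0.13 in the 3 bins wholly in the mid-spacer, and -0.16, -0.14 and -0.13 in the bins from 9001, 11001 and 10001, over the genes. The bin from 4001 had 0.95 in rix1E414K, against 0.61, 0.38 and 1.00 in WT. The bin from 9001 had -0.97, against -0.88, -0.25 and -1.30 in WT. Both mutant values lay between WT replicates 1 and 3. Of its 298 probes, 25 (8.39%) were above all WT arrays, where 23.6% of all probes were, and 2 (0.671%) were below them, where 23.5% were. Of the 25, 23 were in the mid-spacer. ITS2, the spacer whose RNA the rixosome helps remove, averaged -1.20 in rix1E414K and lay between the WT values.

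Each channel was also taken alone, as log2 processed signal minus the median of its array. The rDNA probes were on average brighter than the median probe in both. The Cy3 mean was 1.68 in amo1D, 1.58 in rix1E414K and 1.17 in pob3D, and 1.10, 0.58 and 1.96 in WT replicates 1 to 3. The WT arrays thus differed strongly among themselves in the input channel, with replicate 2 the dimmest and replicate 3 the brightest of all 6. These 2 are also the WT arrays with the highest and the lowest log2 ratio over the rDNA. The part of the input level in the ratio was not tested.

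In Cy5 the mean was 1.16 in amo1D, 1.30 in rix1E414K and 1.64 in pob3D, and 0.82, 0.57 and 1.46 in WT. The pob3D array minus the WT mean was 0.69 in Cy5 and -0.05 in Cy3, with adjusted p of 0.945 and 0.976 in limma. On the same slide these differences were 0.18 and -0.80. Against the WT mean the higher ratio of pob3D was thus all in Cy5, and against WT replicate 3 it was mostly in Cy3. Without WT replicate 3 the Cy5 difference was 0.95, with an adjusted p of 0.000124 in limma, which again rests mainly on the spread of other windows.

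By part, Cy5 over 18S was 0.84 in pob3D, against -0.37, -0.08 and 0.12 in WT. Over 28S it was 1.76 in pob3D, against 0.76, 1.02 and 1.12 in WT. Both lay above all WT arrays. Over the mid-spacer Cy5 was 2.51 in pob3D, against 2.42, 1.56 and 3.17 in WT, and within their range. Cy3 in pob3D lay inside the WT range in each of these 3 parts, at 0.49 in 18S, 1.32 in 28S and 1.74 in the mid-spacer. In amo1D, Cy5 over 18S and 28S was 0.22 and 1.26, also above the WT values, and its Cy3 there was 1.22 and 2.00. In rix1E414K, Cy5 lay inside the WT range over 18S and 28S, and above all WT arrays over ITS1 (-0.17, against -1.69, -2.37 and -0.77 in WT), 5.8S (-0.57, against a highest WT value of -0.61) and the 1 kb upstream of 18S (0.75, against a highest WT value of 0.62). Its Cy3 over ITS1, 1.07, was also above the highest WT value of 0.84. Cy5 above all WT arrays over some part of the rDNA was therefore seen in each mutant.

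**Figure D5:**
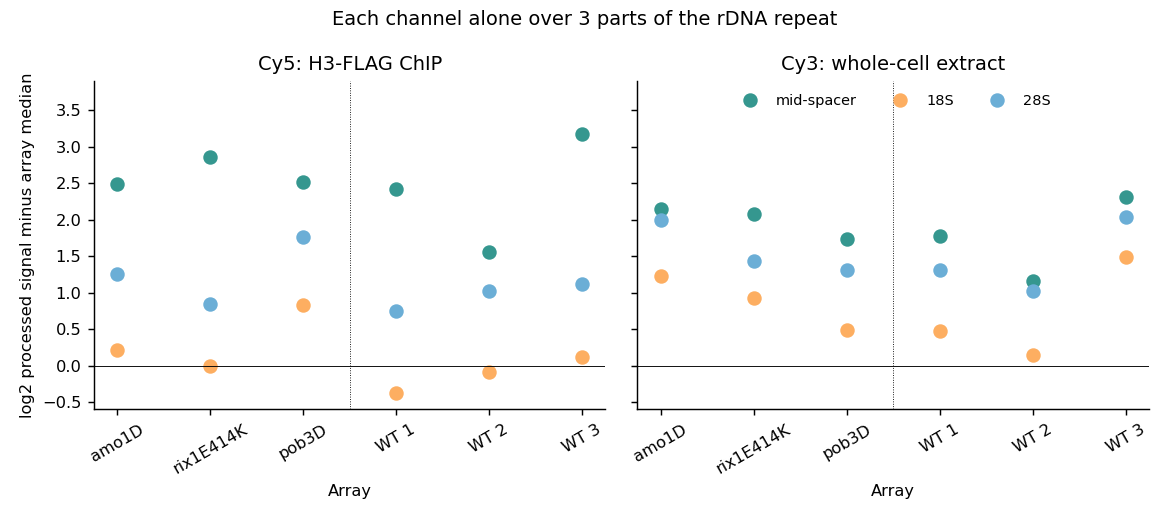
The mean log2 processed signal relative to the array median is shown per array for 3 parts of the repeat, Cy5 (H3-FLAG ChIP) in the left panel and Cy3 (whole-cell extract) in the right, with mutants left of the dotted line. In Cy5 the 18S and 28S points of pob3D (0.84 and 1.76) are above those of all WT arrays, and in Cy3 (0.49 and 1.32) they are within the WT range.

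Other sequence was set beside these levels. The 507 probes between the rDNA and base 49970 of chromosome III averaged -0.17 in amo1D, -0.20 in rix1E414K and -0.07 in pob3D, against a WT mean of -0.16 ± 0.15 (SD, n = 3). The right end of chromosome II, a subtelomeric stretch with 999 probes, averaged -0.17, -0.17 and 0.18 in these mutants, against -0.26 ± 0.25 in WT (SD, n = 3). Its WT mean was thus close to that of the rDNA, and pob3D was above the highest WT value of -0.02 there too, by 0.44 over the WT mean. A pob3D value above all WT arrays was therefore not particular to the rDNA. The 193 probes of the next rDNA copy averaged -0.63, -0.46 and 0.41 in these mutants, against -0.40 ± 0.34 in WT (SD, n = 3). The 15 kb end was an arbitrary point in the mid-spacer: the last 5 members had WT means of 0.59 to 0.86, and the next 5 probes had 0.42 to 0.69.

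The 5S rRNA genes, which RNA polymerase III transcribes and which lie outside the repeat in fission yeast, gave a comparison with other rRNA genes. The 7 of them on the covered part of chromosome II averaged 0.59 in amo1D, -0.01 in rix1E414K and 0.43 in pob3D, against 0.41 ± 0.14 in WT (SD, n = 3). Unlike 18S and 28S they lay above the array median in WT, and pob3D was within the WT range. The rix1E414K array was below the lowest WT value of 0.27, and amo1D was above the highest of 0.54. These genes are near-identical copies, so their values are not independent of each other. Their places on the array were inferred, at 900 or 1800 bases from the reference position. Those offsets gave the best correlation of GC content with Cy3 nearby, of only 0.44 to 0.54. With 2 to 9 probes per gene, the 5S levels depend on this placement, which was not tested.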

How the data were processed

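DNA from 6 samples was hybridised to 2-colour Agilent tiling arrays. Per the file headers, the authors quantified them with Feature Extraction 12.0.3.1, and the deposited scanner files hold processed, background-subtracted and dye-normalized signals as linear intensity values. The authors' deposited series table is a linear ratio, equal to processed Cy5 over Cy3 within a relative difference of 9.05e-09. Its median per array was 0.989 in amo1D, 1.02 in rix1E414K and 0.981 in pob3D, and 1.01, 1.01 and 0.998 in WT, so it is not centred. Scale and direction were settled by that match. Here, log2 of the deposited processed signals was taken, 1227 control spots per array and outlier-marked spots (24 over all arrays, none a member) were left out, and each array was centred on its median. A shift common to all probes can therefore not be seen.

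Values of windows of 15 kb (at least 100 probes) and bins of 1 kb (at least 2 probes) were fitted in limma (version 3.58.1, R 4.3.3), with Benjamini-Hochberg adjustment at 0.05; the fit was tested on simulated data. Only WT has replicates, which leaves 2 residual degrees of freedom and takes the spread of each mutant to be that of WT. Moderation in limma draws that spread toward the one typical of all windows or bins. A p-value thus does not rest on the WT spread of its own window or bin alone. With slide as a block none remain, so within-slide differences carry no test. Part comparisons used an exact permutation test over arrays. The number of arrays limits precision. The members, parts and genes named were chosen with earlier results of these data known; the rule named every annotated part of the repeat, the 3 bins per mutant with the largest difference in each direction and the 3 highest and 3 lowest 500-base windows in WT, and 2 SPNCRNA features were picked after their values were seen. Alternatives were other background corrections, normalizations, filters, bin sizes, part boundaries and leaving out each WT array.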

Additional observations from a re-analysis of the deposited data

How the results depend on the processing

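The direction of the pob3D and amo1D region means held under every alternative run, from 0.49 (loess) to 0.95 (within the slide) in pob3D and from -0.42 to -0.13 in amo1D. Leaving out 1 WT array gave 0.58 to 0.83 in pob3D, -0.38 to -0.13 in amo1D and -0.14 to 0.11 in rix1E414K. The pob3D and amo1D calls past the threshold appeared only without WT replicate 3. The p-values of fits without that array, in the ratio and in Cy5, rest mainly on the spread of other windows. The rix1E414K mean turned to 0.070 with loess, 0.054 with quantile normalization, 0.031 with arrays scaled to one spread and 0.11 without WT replicate 2, and was -0.27 within the slide. The WT mean was -0.39 to -0.14 without 1 replicate. In Cy5, leaving out 1 WT array gave 0.50 to 0.95 in pob3D and 0.16 to 0.61 in rix1E414K (past the threshold without WT replicate 3, adjusted p 0.037 in limma), and the pob3D difference was 0.18 within the slide. In Cy3 the pob3D difference ran from -0.36 to 0.33 without 1 WT array and was -0.80 within the slide. Bins past the adjusted threshold numbered 4 in pob3D with quantile normalization, and 0 to 2 in rix1E414K without 1 WT array; 0 of these were in the rDNA. The 12 part pairs past the threshold became 10 with normexp or no background subtraction, 0 with loess, and 0 to 0 without any 1 WT array, where 5 arrays allow no exact p below 0.0625; the same 12 signs were shared by all remaining arrays. The difference 5.8S minus ITS2 (-0.004) turned to 0.021 with no background subtraction, 0.099 with loess, 0.0085 with medians of probes and 0.077 with part boundaries moved 150 bases up, and ran from -0.045 to 0.016 without 1 WT array; ITS1 minus ITS2 was -0.15 with boundaries moved down. The causes were not tested. Normexp was run on median signals, since the files used hold no mean signals. No paired analysis was possible because slide as a block leaves no residual degrees of freedom, so the within-slide values carry no test. The dim 5.8S and ITS1 probes moved with background handling: rix1E414K minus WT was -0.93 and -0.81 with normexp, against -0.25 and -0.19 as reported.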
